A study of Mus musculus with 9 samples.

Results

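The 7 genes described here encode subunits of the GABA-A receptor and its scaffold protein: the alpha subunit genes Gabra2, Gabra3, Gabra4 and Gabra5, the beta subunit genes Gabrb1 and Gabrb2, and Gphn, which encodes gephyrin. They were taken by symbol from 55401 annotated mouse genes, of which 32394 had a count in some library. All 7 passed the filter on low counts, as did 16046 genes in all. The study asked how a peptide named for the kinase Cdk5 acts in mice with a P301S tau transgene, and RNA was read from NeuN-positive nuclei sorted from cortex. It had 3 groups of 3 libraries from mice aged 7 to 9 months. The P301S Cdk5i mice carried the transgene and were injected intraperitoneally with 20 mg/kg of the Cdk5i peptide every other day. The P301S scrambled mice carried the transgene and received a scrambled peptide at the same dose and interval. The WT mice carried no transgene and received no injection, so in both comparisons with WT the effect of the transgene and that of the injections cannot be told apart. The labels give neither the promoter of the transgene nor which animals gave each library, so p-values measure the spread between libraries, which may be technical.

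GABA is the main fast inhibitory transmitter of the cortex, and the GABA-A receptor is the chloride channel that it opens. The receptor is a pentamer, most often of alpha, beta and gamma subunits. The alpha subunit sets where the receptor sits and how it responds to drugs, and the beta subunit is needed for assembly and forms the GABA site together with the alpha subunit. Gephyrin forms a lattice under the membrane that holds GABA-A and glycine receptors at inhibitory synapses, and the same protein makes the molybdenum cofactor. Gephyrin is also a known substrate of Cdk5, and the counts here measure RNA and not phosphorylation.

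The genes lie on 5 chromosomes of build GRCm38 and all span long stretches that are mostly intron. Gabra2 (chr5:70957597-71095849, minus strand), Gabra4 (chr5:71569749-71658308, minus) and Gabrb1 (chr5:71658113-72149037, plus) form a cluster in which Gabra4 and Gabrb1 start head to head and overlap by 196 bases on opposite strands. Gabra5 (chr7:57407672-57510059, minus) lies partly opposite other genes, with 92638 bases shared. Gabrb2 lies at chr11:42419757-42629028 (plus), Gphn at chr12:78226379-78684772 (plus) and Gabra3 at chrX:72432681-72656848 (minus). Because the deposited counts were made by strand, opposite neighbours were counted separately. Within Gphn, 3 genes on the same strand cover 12641 bases, or 2.76% of its span, and read pairs falling there were not counted for Gphn.

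Promoter windows of Gabra2, Gabra3 and Gabrb2 are shown because their letters differ widely while all 3 genes had lower mean levels in both P301S groups than in WT. Each is the 250 bases before a RefSeq transcript start (GRCm38.p6), printed 5′ to 3′ on the strand of the gene, and the capitals mark a motif found by searching for its letters on both strands.
Gabra2 (chr5:71095850-71096099, minus strand): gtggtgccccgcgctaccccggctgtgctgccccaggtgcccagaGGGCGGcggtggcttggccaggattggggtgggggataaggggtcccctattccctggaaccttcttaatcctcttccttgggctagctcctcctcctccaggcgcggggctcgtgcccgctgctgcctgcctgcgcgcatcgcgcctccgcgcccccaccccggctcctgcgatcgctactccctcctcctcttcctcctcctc
Gabra3 (chrX:72656920-72657169, minus strand): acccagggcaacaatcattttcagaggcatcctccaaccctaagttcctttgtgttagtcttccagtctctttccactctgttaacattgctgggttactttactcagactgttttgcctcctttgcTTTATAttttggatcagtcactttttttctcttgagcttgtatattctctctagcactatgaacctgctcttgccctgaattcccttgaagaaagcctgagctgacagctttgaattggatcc
Gabrb2 (chr11:42420190-42420439, plus strand): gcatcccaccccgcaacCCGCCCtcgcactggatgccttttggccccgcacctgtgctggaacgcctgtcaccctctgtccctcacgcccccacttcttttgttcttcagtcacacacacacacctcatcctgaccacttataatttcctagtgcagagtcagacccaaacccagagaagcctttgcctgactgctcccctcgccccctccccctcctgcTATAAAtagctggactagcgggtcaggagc
The capitals mark the TATA box letters TATAAA in Gabra3, on the strand opposite the gene, and near the 3′ end of the Gabrb2 window, and 12.4% of all 32851 windows held these letters. They mark the GC box letters GGGCGG in Gabra2 and, on the strand opposite the gene, near the 5′ end of the Gabrb2 window, and 32.7% of windows held them. The Gabra3 window had no CpG, with a ratio of observed to expected CpG of 0.00, against 0.61 for Gabra2, 0.44 for Gabrb2 and a median of 0.37 over all windows. Windows at other RefSeq starts of Gabrb2, not printed, held neither the TATA box nor the GC box letters and had ratios of 0.61 and 0.53. The window of Gphn reached 1.00 with a GC content of 77.2% and was wholly exonic, so it is not printed. The cyclic AMP response element TGACGTCA was in no window of the 7 genes and in 1.55% of all windows. These matches describe the letters and say nothing of binding.

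Levels of different genes were compared as CPM, counts scaled to the size of the library, per kilobase of gene span (CPM per kb), averaged over the 9 libraries. Gabrb2 was highest at 2.49 CPM per kb (libraries from 2.19 to 2.89), followed by Gabra4 at 2.40 (2.13 to 2.78), Gabra2 at 1.97 (1.52 to 2.40), Gphn at 1.73 (1.38 to 2.64) and Gabrb1 at 1.67 (1.49 to 1.80). The ranges of neighbours in this order overlapped. Gabra5 at 0.559 (0.478 to 0.692) and Gabra3 at 0.370 (0.335 to 0.432) were lower than the other 5 in every library, and their own ranges did not overlap.

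Library totals ran from 21584712 to 26715938 counts. Rbfox3, which encodes NeuN, was at 1106 to 1558 CPM, while the 8 microglial markers summed to 2.82 to 6.03 CPM and one of them, Itgam, was at 0 in every library. The 14 markers of inhibitory neurons summed to 1336 to 1534 CPM in P301S Cdk5i, 1121 to 1267 CPM in P301S scrambled and 1289 to 1481 CPM in WT libraries. Most of this sum came from Adarb2 and Reln, at means of 858 and 217 CPM in WT, and in P301S scrambled against WT 9 of the 14 had a positive log2 fold change, with a median of 0.05. The 10 astrocyte markers summed to 354 to 522, 403 to 519 and 472 to 555 CPM in the same order of groups. The 10 oligodendrocyte markers summed to 78.8 to 124 CPM in P301S Cdk5i, 84.4 to 111 CPM in P301S scrambled and 74.5 to 84.2 CPM in WT libraries, and of the 8 tested 7 had a positive log2 fold change in P301S scrambled against WT. The 13 markers of striatal neurons summed to 3564 ± 645 CPM in P301S Cdk5i, 2776 ± 531 CPM in P301S scrambled and 2789 ± 652 CPM in WT libraries (SD, n = 3 each). All 13 had a positive log2 fold change in P301S Cdk5i against WT, with a median of 0.35. Of the same 13, 11 had a positive value in P301S scrambled against WT, with a median of 0.30. In WT most of the astrocyte sum came from Slc1a2 (mean 498 CPM) and most of the oligodendrocyte sum from Mbp (63.1 CPM). Most of the striatal sum in WT came from Pde10a (1728 CPM). No marker of these lists passed the edgeR test, and their part in the values of the 7 genes was not tested. In this bulk RNA a smaller share of nuclei of one type and less RNA in each nucleus cannot be told apart.

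In P301S scrambled against WT libraries, all 7 genes had lower mean levels, with a difference of -3.66% for Gabra4 to -26.3% for Gphn, and none passed edgeR's quasi-likelihood test after Benjamini-Hochberg adjustment over all 16046 genes at 0.05. That test called 0.0810% of all genes, and DESeq2 and limma-voom also called 0 of the 7. At an unadjusted edgeR p under 0.05 it counted 4 of the 7, Gabra3, Gabra5, Gabrb2 and Gphn, all lower, where 5.20% of all genes were lower at that level. Without WT replicate 1, and likewise without P301S scrambled replicate 2, the count was 2, Gabra3 and Gphn. Over all genes the count at that level, in either direction, also fell. It was 1614 of 16046 with all libraries, 985 of 16438 without WT replicate 1 and 1177 of 16358 without P301S scrambled replicate 2. The median log2 fold change of the 7 was -0.24, and that of all genes 0.008. The 7 were chosen with earlier results of these data known. Their counts and medians beside all genes, here and in the other comparisons, are thus descriptions and not tests.

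Gabra3, which encodes an alpha subunit found at many cortical and brainstem synapses, had 76.8, 77.9 and 77.7 CPM in P301S scrambled libraries, against 96.9, 96.2 and 85.3 CPM in WT libraries. Every P301S scrambled library was below every WT library, as for Gabrb1 and Gphn, and 8.03% of all genes were separated in this way. The log2 fold change of Gabra3 was -0.26 (SE 0.06, 95% interval -0.40 to -0.12, edgeR adjusted p = 0.244). The SD was 0.591 CPM over the P301S scrambled libraries and 6.50 CPM over the WT libraries. Gabra2, the alpha subunit of receptors at the axon initial segment and of the calming action of benzodiazepines, had 225, 269 and 294 CPM in P301S scrambled libraries, against 332, 332 and 269.7 CPM in WT libraries. The groups overlapped, through WT replicate 3, and the log2 fold change was -0.24 (SE 0.12, edgeR adjusted p = 0.527). Gabra5, whose receptors carry tonic inhibition, had 59.9, 48.9 and 52.7 CPM in P301S scrambled libraries, against 70.9, 60.5 and 58.9 CPM in WT libraries. Its groups overlapped by a single pair of libraries, and the log2 fold change was -0.24 (SE 0.09, edgeR adjusted p = 0.405). Gabra4, whose subunit is found mainly outside synapses, had 188, 200.4 and 223 CPM in P301S scrambled libraries, against 203, 219.9 and 211 CPM in WT libraries. It was the member nearest to no difference, with a log2 fold change of -0.05 (95% interval -0.24 to 0.13, edgeR adjusted p = 0.867).

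Of the beta subunit genes, Gabrb1 had 825, 731 and 822 CPM in P301S scrambled libraries, against 883, 876 and 841 CPM in WT libraries. All P301S scrambled libraries were lower, yet the log2 fold change of -0.13 (95% interval -0.28 to 0.03) had an edgeR adjusted p of 0.58. Gabrb2, a beta subunit gene widely expressed in cortex, had 473, 468 and 543 CPM in P301S scrambled libraries, against 605, 565 and 530.5 CPM in WT libraries. Its groups overlapped, and the log2 fold change was -0.20 (SE 0.08, edgeR adjusted p = 0.457).

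**Figure D1:**
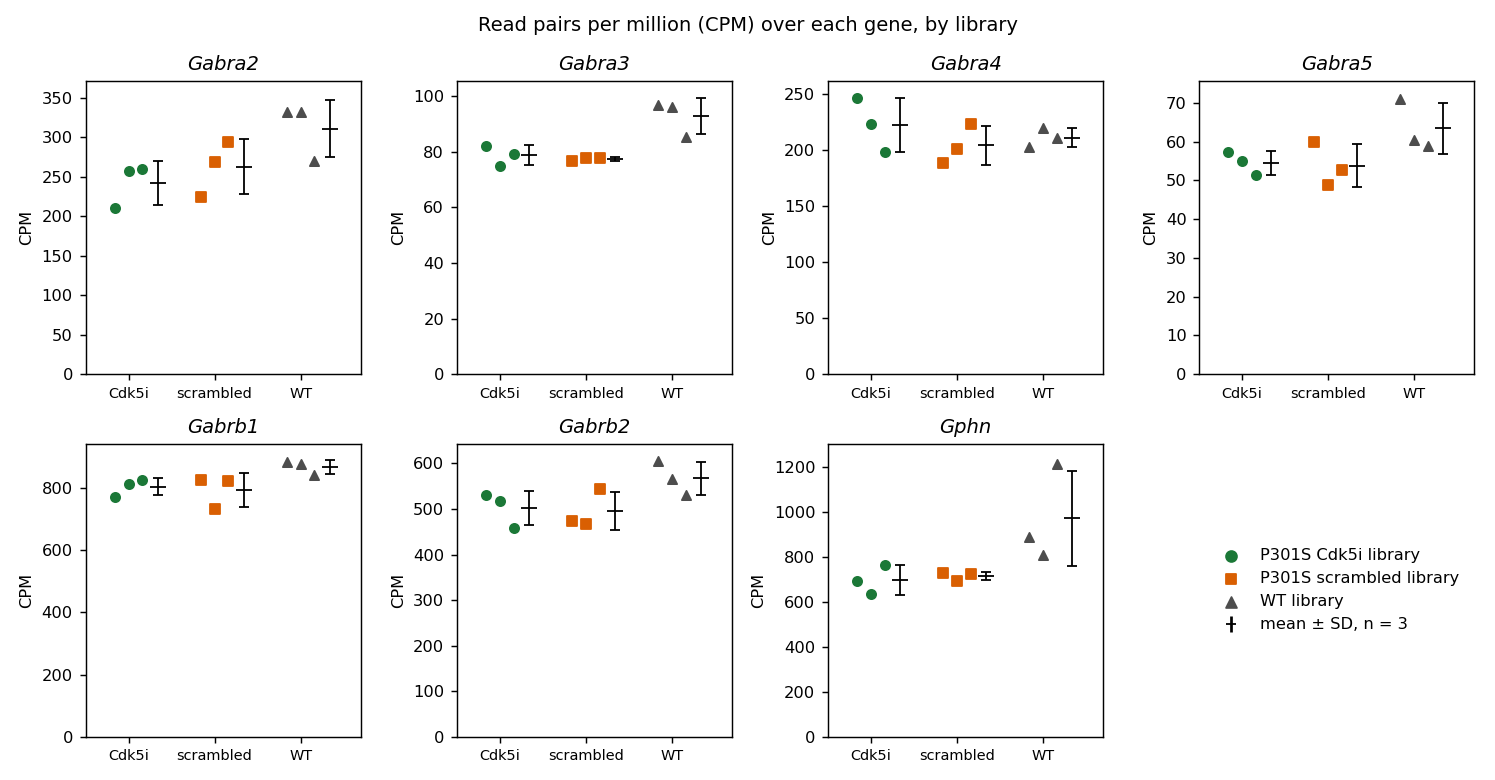
Level of each gene in CPM in each library, with P301S Cdk5i, P301S scrambled and WT from left to right, replicates 1 to 3 from left to right within a group, and bars for mean ± SD (n = 3). The WT libraries tend to be highest for every gene but Gabra4, and the WT value of Gphn at 1210.2 CPM stands above the other 8.

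Gphn had the lowest log2 fold change of the 7 in both comparisons with WT when all libraries were used with no covariate. It had 692, 633 and 764 CPM in P301S Cdk5i, 726, 693 and 723 CPM in P301S scrambled, and 889, 809 and 1210.2 CPM in WT libraries. Every library of both P301S groups was below every WT library, but WT replicate 3 lay far above the other WT libraries. The log2 fold change was -0.44 in P301S scrambled against WT (SE 0.13, 95% interval -0.73 to -0.15, edgeR adjusted p = 0.321). It was -0.48 in P301S Cdk5i against WT (SE 0.13, 95% interval -0.76 to -0.19, edgeR adjusted p = 0.243). Without WT replicate 3 these became -0.25 and -0.29 (edgeR adjusted p = 0.434 and 0.429), and Gabra2 was then the lowest of the 7, at -0.34 and -0.45. In the edgeR fit without a filter on low counts Gphn passed in both comparisons, with adjusted p of 8.72e-06 and 1.13e-06. That fit called 318 and 408 of 32394 genes, against 13 and 12 of 16046 with the filter.

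The level of Gphn moved with that of a ribosomal RNA gene, CT010467.1 on chromosome 17. That gene took 0.811, 0.766 and 1.56% of all counts in P301S Cdk5i, 1.34, 1.33 and 1.15% in P301S scrambled, and 1.62, 1.12 and 3.05% in WT libraries. WT replicate 3 was thus highest for both genes, and P301S Cdk5i replicate 3 was highest within its group for both. Over the 9 libraries the log2 CPM of Gphn and of CT010467.1 had a Pearson r of 0.93 (two-sided exact permutation p = 0.00169) and a Spearman rho of 0.87 (two-sided exact permutation p = 0.00451). This relation was noticed in the data before it was tested, and the p-values do not account for how CT010467.1 was picked. It is also 1 of 7 relations, with no correction for that number. The permutations took no account of group. Without the 2 libraries farthest from the median of CT010467.1, WT replicate 3 and P301S Cdk5i replicate 2, the r was 0.67 for Gphn, and for the other 6 genes it ran from -0.80 for Gabra4 to 0.52 for Gabra2. Groups of 3 libraries are too small for an r within each group. Over all 9 libraries r for the other 6 genes ran from -0.46 for Gabra4 to 0.36 for Gabrb1, and the smallest exact permutation p was 0.0433, for a rho of -0.70 of Gabra4. With the log2 CPM of CT010467.1 as a covariate of the edgeR fit, a setting chosen after the data were seen, the log2 fold change of Gphn was -0.22 in P301S scrambled against WT (adjusted p = 0.406) and -0.16 in P301S Cdk5i against WT (adjusted p = 0.748). In the same fit Gabra3 had -0.30 in both, and Gabra2 had -0.30 and -0.45. CT010467.1 itself did not pass the test in any comparison, with log2 fold changes of -0.68 in P301S scrambled against WT (95% interval -1.62 to 0.27) and -0.91 in P301S Cdk5i against WT (edgeR adjusted p = 0.628 and 0.476). Why the counts of Gphn and of the ribosomal RNA gene moved together was not tested.

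**Figure D2:**
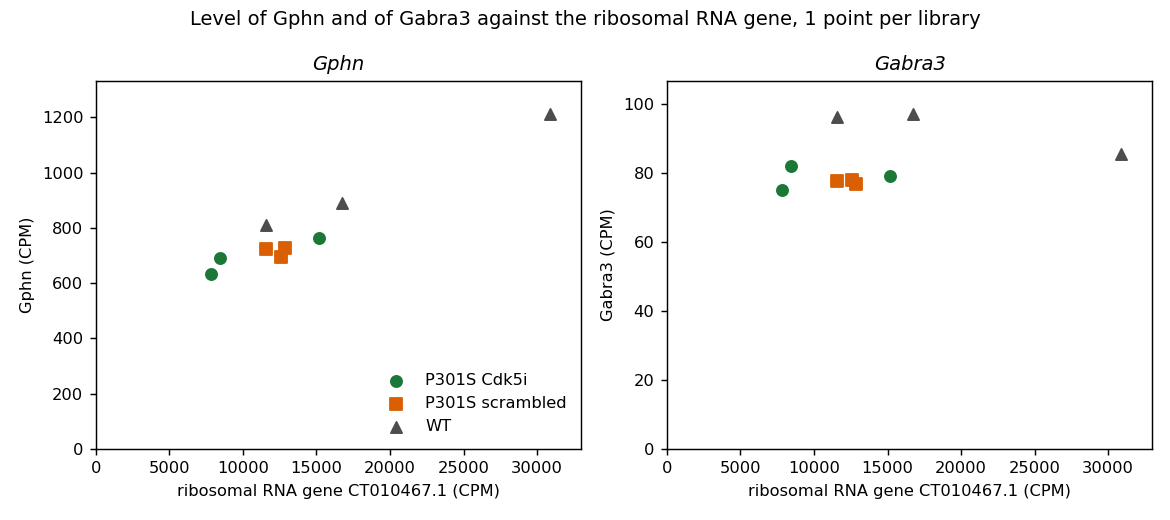
Level of Gphn (left) and, for contrast, Gabra3 (right) in CPM against the ribosomal RNA gene CT010467.1 in CPM, 1 point per library, coloured by group. On the log2 scale, over the libraries of all groups together, Gphn has r = 0.93 and rho = 0.87, and Gabra3 has r = 0.34 and rho = 0.52.

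P301S Cdk5i was set against P301S scrambled to ask what the Cdk5i peptide changed in mice with the same transgene and injections. None of the 7 genes passed the edgeR test in this comparison, which called 0.0125% of all genes, and DESeq2 and limma-voom called 0 of the 7 as well. None had an unadjusted edgeR p under 0.05 either, where 5.33% of all genes were, in either direction. For each of the 7 the libraries of the groups overlapped, while 10.3% of all genes did not overlap, in either direction. The median log2 fold change of the 7 was 0.02, against -0.010 for all genes.

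Gabra4 had 246, 223 and 198 CPM in P301S Cdk5i libraries, against 188, 200.4 and 223 CPM in P301S scrambled libraries. The groups overlapped, and the log2 fold change was 0.13 (95% interval -0.06 to 0.31, edgeR adjusted p = 0.953). Gabra2 had 210.3, 257 and 259.6 CPM in P301S Cdk5i libraries, against 225, 269 and 294 CPM in P301S scrambled libraries. Its log2 fold change was -0.12 (95% interval -0.38 to 0.15, edgeR adjusted p = 0.966). Gabra3, Gabra5, Gabrb1 and Gabrb2 each had a log2 fold change of 0.02. The interval was -0.12 to 0.16 for Gabra3, -0.17 to 0.21 for Gabra5, -0.13 to 0.17 for Gabrb1 and -0.16 to 0.20 for Gabrb2, so differences of that size in either direction remain possible. Gphn, at -0.04, had the widest interval, -0.32 to 0.25. In fold terms the intervals allow Gphn to be from 0.799 to 1.19 times its level in P301S scrambled, and Gabra3 from 0.923 to 1.12 times. The sum of the 7 genes was 2599.7 ± 32.5 CPM in P301S Cdk5i, 2599 ± 126 CPM in P301S scrambled and 3082 ± 125 CPM in WT libraries (SD, n = 3 each), to which Gabrb1 and Gphn contributed most.

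In P301S Cdk5i against WT libraries, 6 of the 7 genes were lower in every P301S Cdk5i library than in any WT library, where 8.22% of all genes were separated in that direction. None passed the edgeR test after adjustment, which called 0.0748% of all genes, and limma-voom called 0 of the 7, while DESeq2 called Gphn (adjusted p = 0.0282). At an unadjusted edgeR p under 0.05, Gabra2, Gabra3, Gabra5 and Gphn were lower, 4 of the 7, as were 5.30% of all genes. The median log2 fold change of the 7 was -0.22, against -0.005 for all genes. Both comparisons with WT use the same WT libraries, so the values of one are no independent check of the other.

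Gabra2 had 210.3, 257 and 259.6 CPM in P301S Cdk5i libraries, against 332, 332 and 269.7 CPM in WT libraries. The gap between the groups was narrow, set by WT replicate 3, and the log2 fold change was -0.36 (SE 0.12, 95% interval -0.62 to -0.10, edgeR adjusted p = 0.326). Gabra3 had 82.1, 75.1 and 79.1 CPM in P301S Cdk5i libraries, against 96.9, 96.2 and 85.3 CPM in WT libraries. Its log2 fold change was -0.24 (SE 0.06, 95% interval -0.38 to -0.10), and its edgeR adjusted p of 0.235 was the smallest of the 7. Gabra5 had 57.4, 54.9 and 51.3 CPM in P301S Cdk5i libraries, against 70.9, 60.5 and 58.9 CPM in WT libraries. The P301S Cdk5i libraries were all lower, and the log2 fold change was -0.22 (SE 0.09, edgeR adjusted p = 0.391). Gabra4 was the exception, at 246, 223 and 198 CPM in P301S Cdk5i libraries, against 203, 219.9 and 211 CPM in WT libraries. Its P301S Cdk5i libraries lay on both sides of the WT libraries, with a log2 fold change of 0.07 (95% interval -0.11 to 0.26, edgeR adjusted p = 0.8). Gabrb1 had 772, 813 and 826 CPM in P301S Cdk5i libraries, against 883, 876 and 841 CPM in WT libraries. Its log2 fold change was -0.11 (95% interval -0.26 to 0.05, edgeR adjusted p = 0.607). Gabrb2 had 529.9, 517 and 458 CPM in P301S Cdk5i libraries, against 605, 565 and 530.5 CPM in WT libraries. Its groups were separated by less than 1 CPM, and the log2 fold change was -0.18 (95% interval -0.36 to 0.01, edgeR adjusted p = 0.474). For the 7 together, leaving out WT replicate 1, which had the highest WT level of Gabra3, Gabra5, Gabrb1 and Gabrb2, moved the median log2 fold change to -0.13 in P301S Cdk5i against WT and to -0.15 in P301S scrambled against WT.

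**Figure D3:**
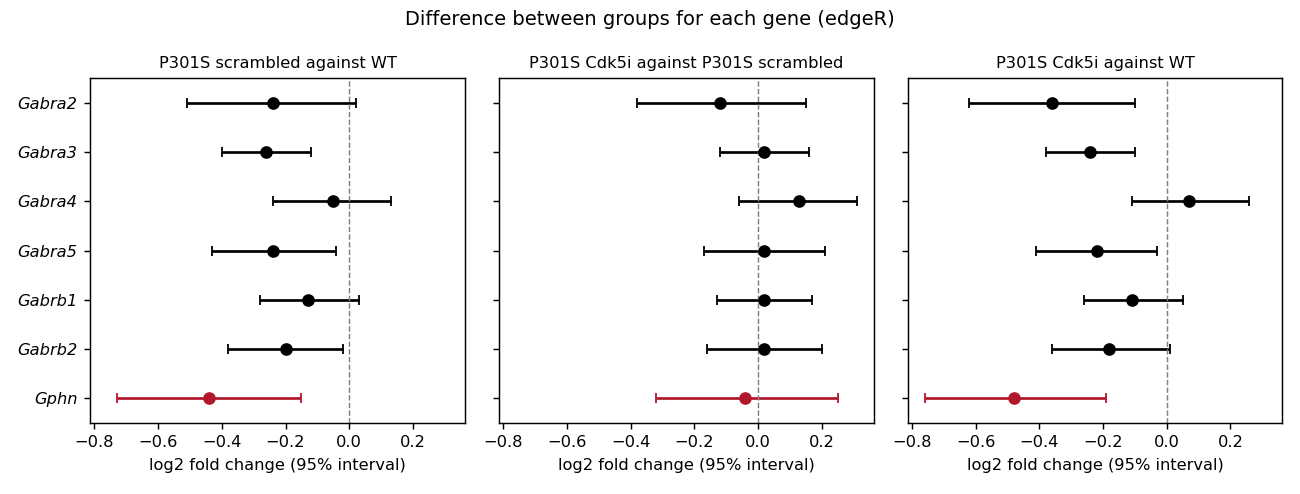
Log2 fold change of each gene with its 95% interval from edgeR in the 3 comparisons, with the group named first on top of the fold change. In the middle panel every interval spans 0, while against WT the intervals of 4 genes lie below 0 in each panel before any adjustment for the number of genes tested.

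The comparison of genes by length puts these values beside a trend that ran through all genes. In P301S scrambled against WT libraries the median log2 fold change was 0.03 over 11018 genes spanning under 50 kb and -0.11 over 374 genes spanning over 400 kb, of which 79.1% had a negative value. In P301S Cdk5i against P301S scrambled libraries the same classes had medians of -0.04 and 0.10, and in P301S Cdk5i against WT libraries -0.01 and -0.03. Gabrb1 spans 491 kb and Gphn 458 kb, so both fall in the longest class, and Gabrb1 at -0.13 in P301S scrambled against WT lay near the median of that class. Gabrb2 (209 kb) and Gabra3 (224 kb) fall in the class from 200 to 400 kb, with a median of -0.07, and Gabra2 (138 kb) and Gabra5 (102388 bases) in that from 100 to 200 kb, with a median of -0.02. With the length trend removed in the edgeR fit, the log2 fold changes in P301S scrambled against WT were -0.22 for Gabra2, -0.21 for Gabra3, -0.05 for Gabra4, -0.23 for Gabra5, -0.03 for Gabrb1, -0.15 for Gabrb2 and -0.36 for Gphn. The part of length in these values was otherwise not tested.

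**Figure D4:**
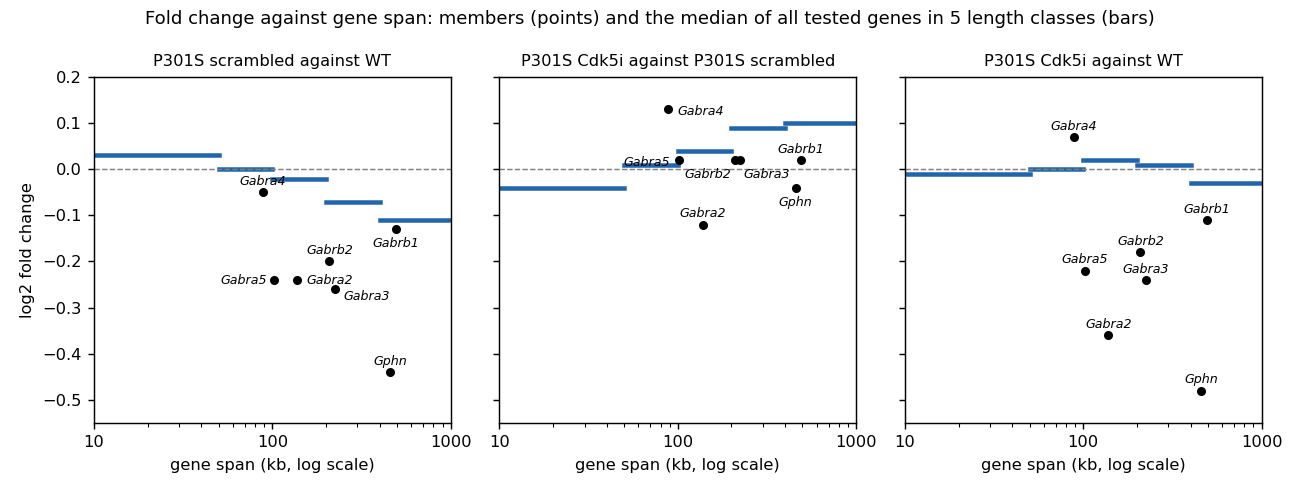
Log2 fold change against gene span in kb on a log axis, with the 7 genes as points and the median of all tested genes in each of 5 length classes as bars. The bars slope down to -0.11 in P301S scrambled against WT, slope up to 0.10 in P301S Cdk5i against P301S scrambled, and stay within 0.03 of 0 in P301S Cdk5i against WT, where Gphn and Gabra2 lie lowest.

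Of the 13 other GABA-A subunit genes, 9 were tested, and none passed in any comparison. Gabrr2, a rho subunit, was under 1 CPM throughout, at 0.446 to 0.496 CPM in P301S Cdk5i, 0.658 to 0.793 in P301S scrambled and 0.237 to 0.409 in WT libraries. Gabra6, Gabrp, Gabrr1 and Gabrr3 had at most 5 counts in a library and were not tested. The median log2 fold change of the 9 tested genes was -0.05, -0.12 and -0.15 in P301S scrambled against WT, P301S Cdk5i against P301S scrambled and P301S Cdk5i against WT.

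Genes that act beside the receptor likewise gave no call by the adjusted edgeR test. Of 27 tested partners of the inhibitory postsynapse, Plcl1, whose product binds receptor beta subunits, had 302, 323 and 333 CPM in P301S Cdk5i libraries, against 276, 286 and 255 CPM in P301S scrambled libraries. These did not overlap, and its log2 fold change was 0.23 (edgeR adjusted p = 0.768). Mdga1, whose product blocks neuroligin 2 at inhibitory synapses, averaged 22.1 ± 3.55 CPM in P301S Cdk5i and 16.8 ± 1.90 CPM in P301S scrambled libraries (SD, n = 3 each), and its groups did not overlap (log2 fold change 0.40, edgeR adjusted p = 0.717). All 5 glycine receptor genes were tested, and Glra2, an alpha subunit, had 32.5, 30.8 and 37.4 CPM in P301S Cdk5i, 32.8, 32.2 and 33.7 CPM in P301S scrambled, and 39.0, 42.9 and 38.1 CPM in WT libraries. Both P301S groups were below WT without overlap (log2 fold changes -0.25 in P301S Cdk5i and -0.28 in P301S scrambled, edgeR adjusted p = 0.299 and 0.307). Glrb, the subunit that gephyrin binds, had a log2 fold change of -0.17 in P301S Cdk5i against WT and -0.18 in P301S scrambled against WT (edgeR adjusted p = 0.416 and 0.45). Of the 7 molybdenum cofactor genes, the pathway of gephyrin's enzyme activity, Mocs3 and Suox had the smallest p, both under 2 CPM in every library and with edgeR adjusted p of at least 0.33 in each comparison. Of 5 tested GABA-B receptor genes, Kctd16, an auxiliary subunit, had 1366, 1252 and 1123 CPM in P301S Cdk5i, 929, 1194 and 1313 CPM in P301S scrambled, and 1463, 1440.4 and 1339 CPM in WT libraries (edgeR adjusted p = 0.413 in P301S scrambled against WT). Kctd8, of the same family, had a log2 fold change of 0.24 in P301S Cdk5i against WT (edgeR adjusted p = 0.352). Of 7 tested genes of GABA synthesis and transport, Abat, whose product breaks GABA down, had a log2 fold change of 0.33 in P301S Cdk5i against WT (edgeR adjusted p = 0.512). Of 9 tested genes of chloride transport, Wnk2, a kinase of the family that regulates chloride cotransporters, averaged 337 ± 15.7 CPM in P301S Cdk5i, 336 ± 3.36 CPM in P301S scrambled and 299 ± 6.90 CPM in WT libraries (SD, n = 3 each). It was higher in both P301S groups without overlap, by 0.17 on the log2 scale in each (edgeR adjusted p = 0.335 in P301S Cdk5i and 0.379 in P301S scrambled). Clcn2, a chloride channel, had 0.18 and 0.22 in the same comparisons (edgeR adjusted p = 0.428 and 0.386).

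For each of the 7 genes the protein-coding gene with the most similar profile over the 9 libraries was found among 5411 genes, by the root mean square difference of centred log2 CPM. Gabra4 had the closest, Dgki, at 0.0253, followed by Gabrb1 with Ccdc47 at 0.0281, Gabrb2 with Syt1 at 0.0318, Gabra5 with Cd46 at 0.0414 and Gabra3 with Itfg1 at 0.0449. Gabra2, with Angel2 at 0.106, and Gphn, with Peak1 at 0.123, had no gene as close. This difference is not scaled by a gene's own spread over the libraries. Gabra2 and Gphn also had the largest SD of log2 CPM, at 0.223 and 0.277, against 0.0847 for Gabrb1 to 0.158 for Gabra5. The other member nearest to Gphn was Gabra3, at 0.22, and 341 genes lay nearer to it than that. Gabrb2 and Gabra3 were the nearest pair among the 7, at 0.0889, and 191 genes lay nearer to Gabra3 than Gabrb2 did.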

How the data were processed

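Counts were whole numbers of read pairs per gene in 1 table per library, not normalised, as the authors deposited them. A kit made for fixed tissue gave the RNA, and a stranded low-input total RNA kit the libraries, per the labels' protocols. The tables were made by featureCounts on Ensembl release 102 with whole genes as features, read pairs and reversed strand, per the file headers, so exons and introns count together. The submitters' processing notes list Subread 2.0.0, DESeq2 1.36.0 and STAR 2.7.9a with the build GRCm38. Under these settings a read pair lying in more than 1 gene of a strand is not counted.

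Counts of 9 libraries in 3 groups, taken from the sample titles, were filtered with filterByExpr (minimum 10) and fitted in R 4.3.3 by edgeR 4.0.16, and TMM factors were used for tests and CPM. One robust quasi-likelihood model with 3 group means left 6 residual degrees of freedom, and each comparison was adjusted by Benjamini-Hochberg over all 16046 genes at 0.05. Within groups the counts of library pairs gave a chi-square of 8.82 to 26.0 per gene, above sampling noise, so none was a copy. Standard errors on the log2 scale had a median of 0.138. Relations between libraries were tested by exact permutation over all 9 libraries, without regard to group. Promoter windows are from RefSeq, and all 7 genes matched by symbol. The biotype of CT010467.1 is from GENCODE. The procedure was tested on simulated data.

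The genes and the lists of related genes were chosen with earlier results of these data known. The genes named are the 7 themselves, the genes of each related list with the 2 smallest p-values in any comparison or past the threshold, and the gene with the most similar profile to each of the 7. Nlgn4l, Insyn2a and Insyn2b were not matched by symbol, and Oxsr1, Kctd12b, Slc6a12 and Slc6a13 were too low to test. Results for some listed genes are left out. Alternatives were DESeq2 1.42.0, limma-voom 3.58.1 with sample weights, DESeq2 size factors, no filter or a filter of 50 counts, fits of only the groups compared, a replicate block, a gene length trend, non-robust dispersion, leaving out each library and, added after the data were seen, the ribosomal RNA level as a covariate.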

Additional observations from a re-analysis of the deposited data

How the results depend on the processing

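In P301S scrambled against WT, 0 of the 7 genes passed in every alternative but 1: without the filter on low counts Gphn passed (log2 fold change -0.44, adjusted p = 8.72e-06), for a count of 1. In P301S Cdk5i against WT the count was 1 with DESeq2 (Gphn, adjusted p = 0.0282) and 2 without the filter (Gphn, adjusted p = 1.13e-06, and Gabra2, adjusted p = 0.000585). The edgeR fit without the filter called 318 of 32394 genes in P301S scrambled against WT and 408 in P301S Cdk5i against WT, against 13 and 12 with it, and DESeq2 called 75 and 113. The cause was not tested. Over the 16 alternatives the adjusted p of Gphn ranged from 8.72e-06 to 0.685 in P301S scrambled against WT and from 1.13e-06 to 0.748 in P301S Cdk5i against WT. Leaving out 1 library at a time gave 0 genes of the 7 past the threshold each time, and medians of the 7 from -0.26 to -0.15 in P301S scrambled against WT and from -0.27 to -0.13 in P301S Cdk5i against WT. In both, the value nearest 0 came without WT replicate 1.

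In P301S Cdk5i against P301S scrambled 0 of the 7 passed under any alternative, and values near 0 changed sign. With the gene length trend removed they were -0.04 for Gabra3, -0.01 for Gabra5, -0.07 for Gabrb1 and -0.04 for Gabrb2. With the ribosomal RNA covariate they were -0.01 for Gabra5, -0.02 for Gabrb2 and 0.07 for Gphn, and Gabra4 in P301S Cdk5i against WT was -0.03. Leaving out 1 library at a time gave, for this comparison, -0.01 to 0.06 for Gabra3, -0.04 to 0.11 for Gabra5, -0.03 to 0.06 for Gabrb1, -0.02 to 0.10 for Gabrb2 and -0.10 to 0.03 for Gphn, and -0.01 to 0.16 for Gabra4 in P301S Cdk5i against WT. Gabrb2 stood at 0.00 without P301S scrambled replicate 1 and without P301S Cdk5i replicate 2.

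Replicate numbers gave no sign of pairing over all genes: deviations from group means correlated at -0.31 to 0.17 for same-numbered pairs and -0.15 to 0.28 for others. With 3 libraries a group, a pairing that touched only some genes could be missed. With the number as a replicate block 0 of the 7 passed in each comparison, with medians of -0.24, 0.02 and -0.21 in the order of the report, and 2, 2 and 2 of all genes were called, against 13, 2 and 12 without it. With 3 libraries a group, differences smaller than the intervals given could not be resolved.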
